A study of Homo sapiens with 6 samples.

Results

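The matrix metalloproteinases (MMP), the ADAM and ADAMTS proteases, the ADAMTS-like proteins (ADAMTSL) and the tissue inhibitors of metalloproteinases (TIMP) were described in H1299 cells with and without a SETDB1 knockout. Members were all rows of the count table whose Ensembl identifier belongs to a protein-coding gene with an MMP, ADAM, ADAMTS, ADAMTSL or TIMP symbol followed by a number. The rule found 46 genes among 18677 rows: 13 MMP, 13 ADAM, 15 ADAMTS, 3 ADAMTSL and 2 TIMP genes. The annotation holds 71 such genes, and the other 25, among them TIMP3 and TIMP4, were not analysed here.

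H1299 cells are a widely used lung cancer line of the non-small cell type. SETDB1-knockout cells carried the guide RNA hSETDB1 sg1 against SETDB1, a histone methyltransferase that writes the repressive H3K9me3 mark, and control knockout cells carried the guide RNA Control sg2. Both groups were grown in RPMI-1640 medium with serum, antibiotics and puromycin, and total RNA of 3 samples per group was sequenced. Each group rests on 1 guide. Nothing in the labels states that replicates came from different cultures, so the p-values measure only the spread between these samples, which may be technical.

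Metalloproteinases of these families carry a zinc ion in the active site and are made as inactive precursors. Secreted MMPs cut collagens and other matrix proteins, membrane-anchored MMPs act at the cell surface, and some of them activate the secreted MMP2. ADAM proteases release the outer part of growth factors, receptors and adhesion molecules from the membrane, ADAMTS proteases are secreted and process proteoglycans, procollagens and microfibril proteins, and TIMPs bind and block the active site. ADAMTSL proteins resemble the ADAMTS tail and have no protease domain.

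The 6 libraries held 29532057 to 35941288 counts, so that 1 count was 0.0282 to 0.0334 CPM (counts scaled by library size). SETDB1 mRNA (chromosome 1, 150926263 to 150964744, GRCh38) was at 40.59, 36.06 and 39.12 CPM in SETDB1-knockout libraries, against 45.01, 43.96 and 41.57 CPM in control libraries. The log2 fold change was -0.17 ± 0.06 (standard error, SE), with an adjusted p of 0.0151 in edgeR's quasi-likelihood test. Without SETDB1-knockout replicate 2 the adjusted p was 0.0896, and with library size alone 0.0605, both at -0.13, within a range of adjusted p from 4.84e-04 to 1 over all alternatives. Counts per gene do not show the edit itself. VIM, KRT8 and KRT18, together with a near-absent EPCAM, summed to 2633 to 2755 CPM in SETDB1-knockout libraries and 3325 to 3513 CPM in control libraries. The measured fibroblast markers, 3 of 6 listed, summed to 1.13 to 1.39 CPM in SETDB1-knockout libraries and 1.70 to 1.84 CPM in control libraries. Leukocyte markers, 2 of 4, summed to 0.665 to 1.02 CPM in SETDB1-knockout libraries and 0.226 to 0.400 CPM in control libraries, and 1 endothelial marker of 3 to at most 0.0667 CPM in SETDB1-knockout libraries and at most 0.378 CPM in control libraries. The part of these levels in the results below was not tested.

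SETDB1-knockout cells had more mRNA of ADAMTS9, ADAMTS10, MMP2 and MMP16 and less of ADAM19, ADAM12, ADAMTS15 and TIMP2. Of the 46 genes, 43 passed the filter on low counts, and ADAMTS2, ADAMTS4 and MMP23B did not. In edgeR's quasi-likelihood test with Benjamini-Hochberg adjustment over 17675 genes, 28 of the 43 passed an adjusted p of 0.05: 12 were higher and 16 lower in SETDB1-knockout libraries. Across all genes tested 63.5% were called, 31.9% higher and 31.6% lower, so the share of called members, 65.1%, was near the background. A change of at least 2-fold was called for 10 members, 4 higher and 6 lower, where the background was 12.9% of all genes. The libraries of the groups did not overlap for 27 members, 12 higher and 15 lower, beside 66.8% of all genes. The median log2 fold change was -0.14 over the 43 members and 0.01 over all genes tested, and the median size of change was 0.42 over the members and 0.33 over all genes.

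By family, 4 of 12 MMP genes were called higher and 1 lower, and 2 of 13 ADAM genes higher and 7 lower. Of 13 ADAMTS genes, 4 were higher and 5 lower. Of the 3 ADAMTSL genes 1 was higher and 2 were lower, and of the 2 TIMP genes 1 was higher and 1 lower. The share called was 41.7% for MMP and 69.2% for both ADAM and ADAMTS genes, beside 63.5% of all genes tested. Over all genes 31.9% were called higher and 31.6% lower. Differences between families were not tested. The filter corresponded to 0.306 CPM in 3 libraries. It was passed in both groups by 34 members. ADAMTS9 and ADAMTS10 passed it through the SETDB1-knockout libraries alone, and ADAM12, ADAM28, ADAMTS7, ADAMTS8 and MMP24 through the control libraries alone, so these genes entered by their higher group, and ADAMTS18 and MMP25 passed through libraries of both groups together. At bulk level, fewer cells that express a gene and less RNA per cell cannot be told apart.

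**Figure D1:**
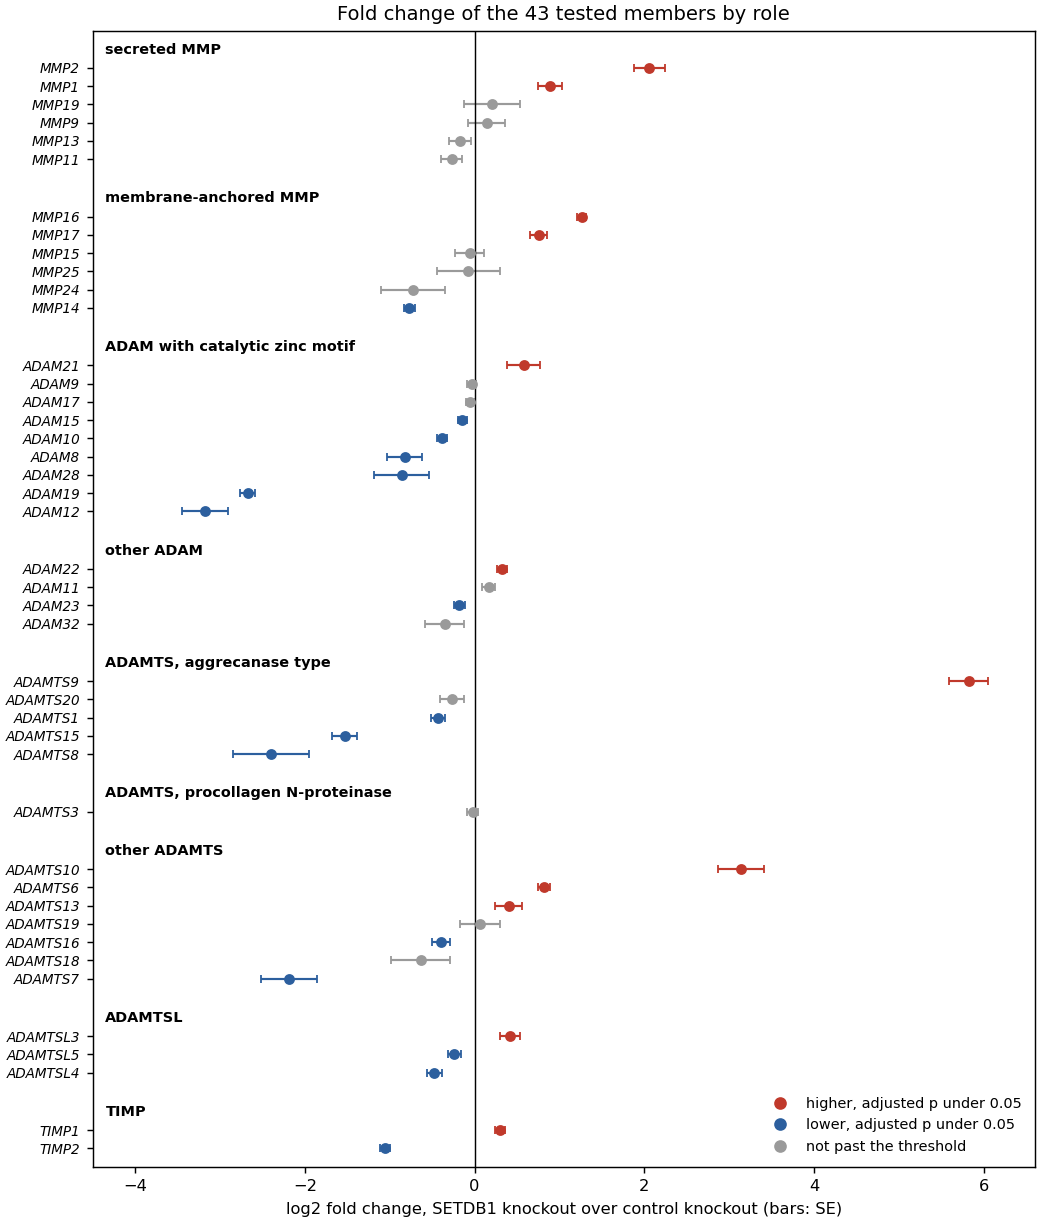
Log2 fold change, SETDB1 knockout over control, with its standard error for the 43 tested genes. Genes are grouped by role, such as secreted or membrane-anchored MMPs, and coloured by call. ADAMTS9 is farthest to the higher side at 5.82, and ADAM12 farthest to the lower side at -3.18.

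The inhibitors moved in opposite directions. TIMP1 (chromosome X, 47582313 to 47586789), a broad inhibitor of secreted MMPs, was at 239.8, 225.1 and 226.8 CPM in SETDB1-knockout libraries, against 206.2, 179.0 and 176.4 CPM in control libraries. All 3 SETDB1-knockout libraries lay above the control libraries, and the log2 fold change was 0.30 ± 0.06 (adjusted p = 2.39e-04). TIMP2 (chromosome 17, 78852977 to 78925387), which blocks MMPs and also bridges MMP14 to the MMP2 precursor, was at 141.0, 129.0 and 123.7 CPM in SETDB1-knockout libraries, against 294.0, 269.6 and 255.6 CPM in control libraries. The groups were far apart relative to their spread, with a log2 fold change of -1.06 ± 0.06 (adjusted p = 1.55e-11), 2.08-fold lower in SETDB1-knockout cells.

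Per kilobase of annotated exon, TIMP1 had the highest level of all members, 149.6 CPM per kb in SETDB1-knockout cells and 121.5 CPM per kb in control cells. TIMP2 was at 23.3 CPM per kb in SETDB1-knockout cells and 48.5 CPM per kb in control cells. The summed TIMP level was 172.9 ± 6.71 CPM per kb in SETDB1-knockout cells and 170.0 ± 14.1 CPM per kb in control cells (SD, n = 3 each). TIMP1 made up 86.5 ± 0.445% of it in SETDB1-knockout cells and 71.5 ± 0.579% in control cells, a description of these libraries without a test.

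Among the secreted MMPs, 2 of 6 tested genes were higher and 0 were called lower by edgeR, DESeq2 or limma-voom. At an unadjusted p under 0.05 in edgeR, 1 gene, MMP11, was lower. The shares of all genes called were 31.9% higher and 31.6% lower. MMP2 (chromosome 16, 55389700 to 55506691), gelatinase A, was at 4.099, 3.611 and 3.307 CPM in SETDB1-knockout libraries, against 1.101, 0.5676 and 0.9602 CPM in control libraries. The lowest SETDB1-knockout library stood at 3.307 CPM, above the highest control library, and the log2 fold change was 2.06 ± 0.18 (adjusted p = 6.76e-09). MMP1 (chromosome 11, 102789920 to 102798160), interstitial collagenase, was at 4.732, 4.045 and 3.365 CPM in SETDB1-knockout libraries, against 2.469, 1.987 and 2.090 CPM in control libraries. The groups did not overlap, and the log2 fold change was 0.89 ± 0.14 (adjusted p = 2.23e-05).

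The other secreted members did not pass the test. MMP13, collagenase 3, lies 144.8 kb from MMP1 and had a log2 fold change of -0.17 ± 0.13. MMP11, stromelysin 3, had -0.27 ± 0.13 with an adjusted p of 0.0688, and was called at -0.39 without control replicate 3, with an adjusted p of 0.0106. It was at -0.16 (0.325) without control replicate 2 and at -0.14 (0.363) with its neighbourhood median taken out. MMP9, gelatinase B, averaged 1.17 ± 0.146 CPM in SETDB1-knockout libraries and 1.07 ± 0.308 CPM in control libraries. Its log2 fold change was 0.14 ± 0.22, and 18.4% of its exon bases overlap the antisense gene SLC12A5-AS1, whose own log2 fold change was 1.97. MMP19 averaged 0.496 ± 0.207 CPM in SETDB1-knockout libraries and 0.423 ± 0.0976 CPM in control libraries, and shares 17.4% of its exon bases with TMEM198B. MMP23B, placed here with the secreted members by the grouping used, has a near-identical copy elsewhere. It had 24 counts over the SETDB1-knockout libraries and 33 over the control libraries and was not tested.

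Of the 6 membrane-anchored MMPs, MMP16 and MMP17 were higher and MMP14 was lower. That was 50% of them, beside 63.5% of all genes tested. MMP14 (chromosome 14, 22836557 to 22849027), a collagenase that activates MMP2, was at 129.1, 110.7 and 114.2 CPM in SETDB1-knockout libraries, against 221.3, 194.7 and 186.7 CPM in control libraries. The log2 fold change was -0.77 ± 0.07 (adjusted p = 6.27e-09), 1.70-fold lower in SETDB1-knockout cells. MMP16 (chromosome 8, 88032009 to 88328025), another membrane-type MMP that can activate MMP2, was at 85.92, 86.07 and 82.02 CPM in SETDB1-knockout libraries, against 36.80, 35.66 and 33.61 CPM in control libraries. The groups were separate, with a log2 fold change of 1.26 ± 0.05 (adjusted p = 1.53e-13), 2.40-fold higher in SETDB1-knockout cells.

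MMP17, held in the membrane by a lipid anchor, averaged 9.19 ± 0.538 CPM in SETDB1-knockout libraries and 5.44 ± 0.757 CPM in control libraries. Its log2 fold change was 0.76 ± 0.10 (adjusted p = 1.58e-06). MMP15, MMP24 and MMP25 did not pass, with log2 fold changes of -0.06 ± 0.17, -0.73 ± 0.38 and -0.07 ± 0.37. MMP24 was called without SETDB1-knockout replicate 2, at -1.06 and an adjusted p of 0.0413, but was at -0.35 (0.383) without SETDB1-knockout replicate 1 and at -0.44 (0.402) without control replicate 3. MMP24 and MMP25 share 18.1% and 35.2% of their exon bases with antisense genes.

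**Figure D2:**
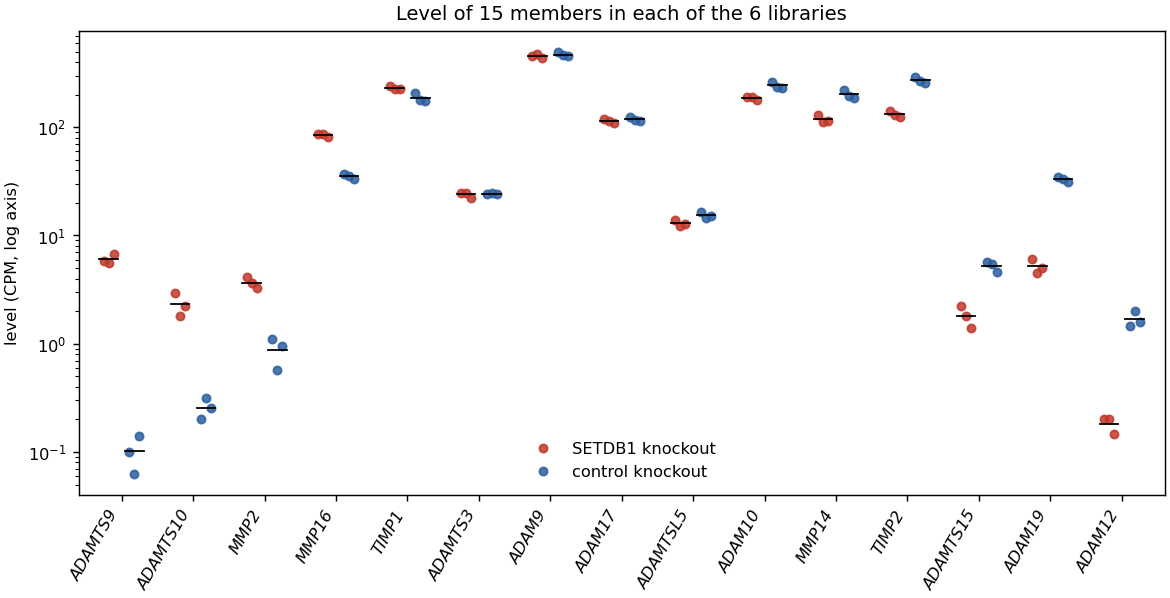
CPM in each library on a log axis for members described by library other than MMP1, with SETDB1-knockout libraries left of control libraries. For MMP2, MMP16, ADAMTS9 and ADAMTS10 every SETDB1-knockout library lies above the control libraries, and for TIMP2, MMP14, ADAM12 and ADAM19 every one lies below.

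Set side by side per length, the MMP mRNA pool had a different make-up in the groups. MMP14 made up 63.6 ± 1.66% of the summed MMP level in SETDB1-knockout cells and 83.4 ± 0.754% in control cells (SD, n = 3 each). MMP16 made up 16.9 ± 0.928% in SETDB1-knockout cells and 5.42 ± 0.228% in control cells. MMP17, MMP1 and MMP2 made up 5.53%, 4.93% and 1.79% in SETDB1-knockout cells and 2.52%, 2.05% and 0.328% in control cells. The summed MMP level was 41.5 ± 2.78 CPM per kb in SETDB1-knockout cells and 53.9 ± 4.4 CPM per kb in control cells. TIMP2 per MMP14, as a ratio of levels per length, was 0.883 ± 0.0358 in SETDB1-knockout cells and 1.08 ± 0.0230 in control cells. These sums and ratios describe the libraries and were not tested.

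**Figure D3:**
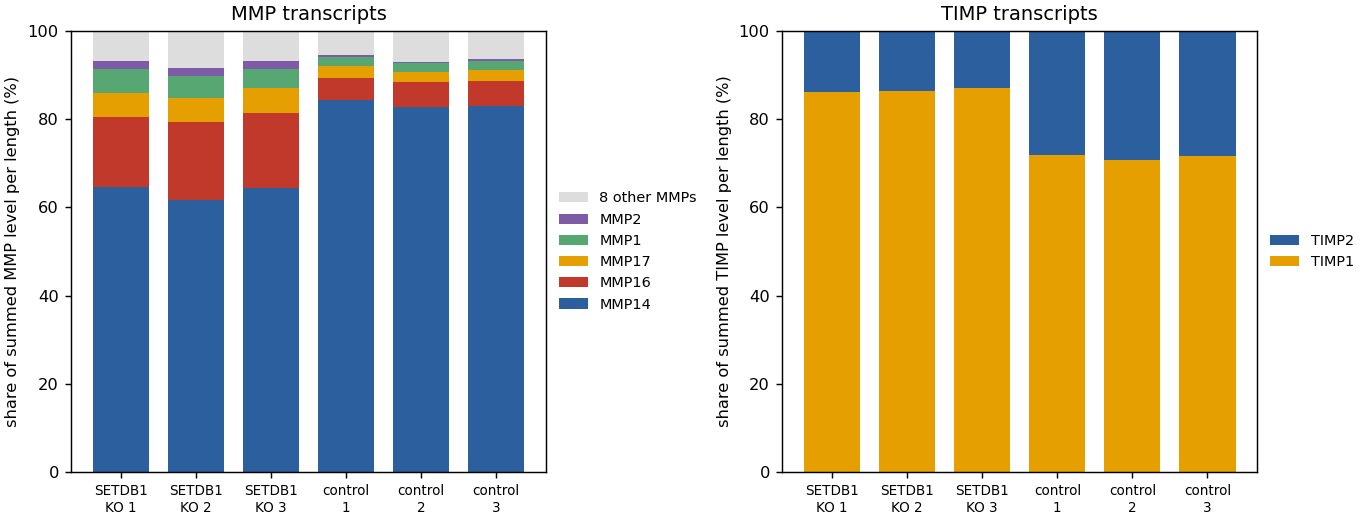
Share of the summed MMP level and of the summed TIMP level per kilobase of exon that each gene made up in each library, SETDB1-knockout libraries left of control libraries. MMP14 makes up 61.7 to 64.7% of the MMP level in SETDB1-knockout libraries and 82.9 to 84.3% in control libraries.

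The ADAM genes with a catalytic zinc motif were called lower in 6 of 9 cases and higher in 1. Of all genes tested, 31.6% were called lower and 31.9% higher. Among the 6, ADAM8, ADAM10, ADAM15 and ADAM28 lost the call in at least 1 alternative, as described below. ADAM19 (chromosome 5, 157395534 to 157575775), a protease that can shed neuregulins, was at 6.065, 4.507 and 5.004 CPM in SETDB1-knockout libraries, against 34.57, 33.11 and 31.41 CPM in control libraries. The groups were far apart, with a log2 fold change of -2.68 ± 0.09 (adjusted p = 1.68e-15), 6.39-fold lower in SETDB1-knockout cells. ADAM12 (chromosome 10, 126012381 to 126388455), its close relative among the meltrins, was at 0.200, 0.2022 and 0.1463 CPM in SETDB1-knockout libraries, against 1.468, 1.987 and 1.582 CPM in control libraries. That was 18 counts over the SETDB1-knockout libraries and 163 over the control libraries, a log2 fold change of -3.18 ± 0.27 (adjusted p = 4.69e-09).

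ADAM10 and ADAM17 are the best-known sheddases. ADAM10 (chromosome 15, 58588807 to 58749978), which cuts Notch receptors and cadherins, was at 190.1, 191.8 and 180.3 CPM in SETDB1-knockout libraries, against 262.9, 236.6 and 232.8 CPM in control libraries. The log2 fold change was -0.38 ± 0.06 (adjusted p = 8.02e-06), without overlap. The 50 expressed genes around ADAM10 had a median log2 fold change of -0.51. With that median taken out, the value turned to 0.12, with an adjusted p of 0.0688 in edgeR's test and a range from 8.91e-16 to 1 over all alternatives. ADAM17 (chromosome 2, 9488486 to 9556732), which releases tumour necrosis factor and ligands of the epidermal growth factor receptor, was at 120.1, 113.9 and 109.6 CPM in SETDB1-knockout libraries, against 124.9, 116.2 and 115.1 CPM in control libraries. These groups overlapped, and the log2 fold change of -0.05 ± 0.05 did not pass (adjusted p = 0.427). The difference between the changes of ADAM10 and ADAM17 was not tested. ADAM17 shares 12.3% of its exon bases with IAH1 on the opposite strand, whose own log2 fold change was 0.98. The strand setting of the counts is not known, and the part of IAH1 reads in the ADAM17 value was not tested.

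ADAM9 (chromosome 8) had the highest level per length of the ADAM genes, 66.1 CPM per kb in SETDB1-knockout cells and 67.7 CPM per kb in control cells. It was at 454.5, 477.7 and 438.9 CPM in SETDB1-knockout libraries, against 492.4, 460.4 and 452.1 CPM in control libraries. The groups overlapped, and the log2 fold change was -0.04 ± 0.06 (adjusted p = 0.604). ADAM32, whose gene lies 1.8 kb from ADAM9, did not pass either, at -0.35 ± 0.23, and was called without SETDB1-knockout replicate 3, at -0.65 and an adjusted p of 0.033. It was at -0.23 without SETDB1-knockout replicate 1 (adjusted p = 0.424) and without SETDB1-knockout replicate 2 (0.45).

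Smaller or less stable falls were called for 3 further proteases. ADAM8, known from leukocytes, averaged 1.28 ± 0.455 CPM in SETDB1-knockout libraries and 2.26 ± 0.244 CPM in control libraries, with a log2 fold change of -0.82 ± 0.20 (adjusted p = 0.00153). With the neighbourhood median of -0.45 taken out, ADAM8 was at -0.37 and lost its call (adjusted p = 0.13). ADAM28, with 29 counts over the SETDB1-knockout libraries and 52 over the control libraries, had -0.86 ± 0.32 (adjusted p = 0.0247), and lost its call when SETDB1-knockout replicate 1 or 2 or control replicate 3 was left out, at adjusted p of 0.0964, 0.0602 and 0.108. ADAM15 had -0.14 ± 0.06 (adjusted p = 0.0321), and lost its call when SETDB1-knockout replicate 2 or 3 or control replicate 1 was left out, at adjusted p of 0.0992, 0.0834 and 0.181. The same happened to ADAM15 with library size alone (0.114) and with upper-quartile scaling (0.0992), and with its neighbourhood median taken out it was at -0.37. The 1 gene called higher was ADAM21, at 0.58 ± 0.20 (adjusted p = 0.0147). Leaving out SETDB1-knockout replicate 3 or control replicate 1 ended that call, at adjusted p of 0.0592 and 0.073, as did the DESeq2 test at 0.0667. DESeq2 also ended the call of ADAM28, at 0.11.

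ADAM11, ADAM22 and ADAM23 lack the catalytic motif and bind LGI proteins in the nervous system. ADAM22 averaged 90.1 ± 5.39 CPM in SETDB1-knockout libraries and 71.8 ± 4.32 CPM in control libraries, with a log2 fold change of 0.33 ± 0.06 (adjusted p = 6.34e-05). ADAM23 had -0.18 ± 0.07 (adjusted p = 0.032) with overlapping groups, and lost its call when SETDB1-knockout replicate 3 or control replicate 1 or 2 was left out, at adjusted p of 0.212, 0.141 and 0.0567, and also with library size alone (0.0824) and upper-quartile scaling (0.0836). With the neighbourhood median taken out, ADAM22 was at 0.50 and ADAM23 at -0.29. ADAM11 did not pass at 0.16 ± 0.08, and was called without control replicate 1 (0.24, adjusted p = 0.0102), with library size alone (0.21, 0.0195) and with upper-quartile scaling (0.20, 0.0325). With its neighbourhood median taken out it was at 0.10.

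**Figure D4:**
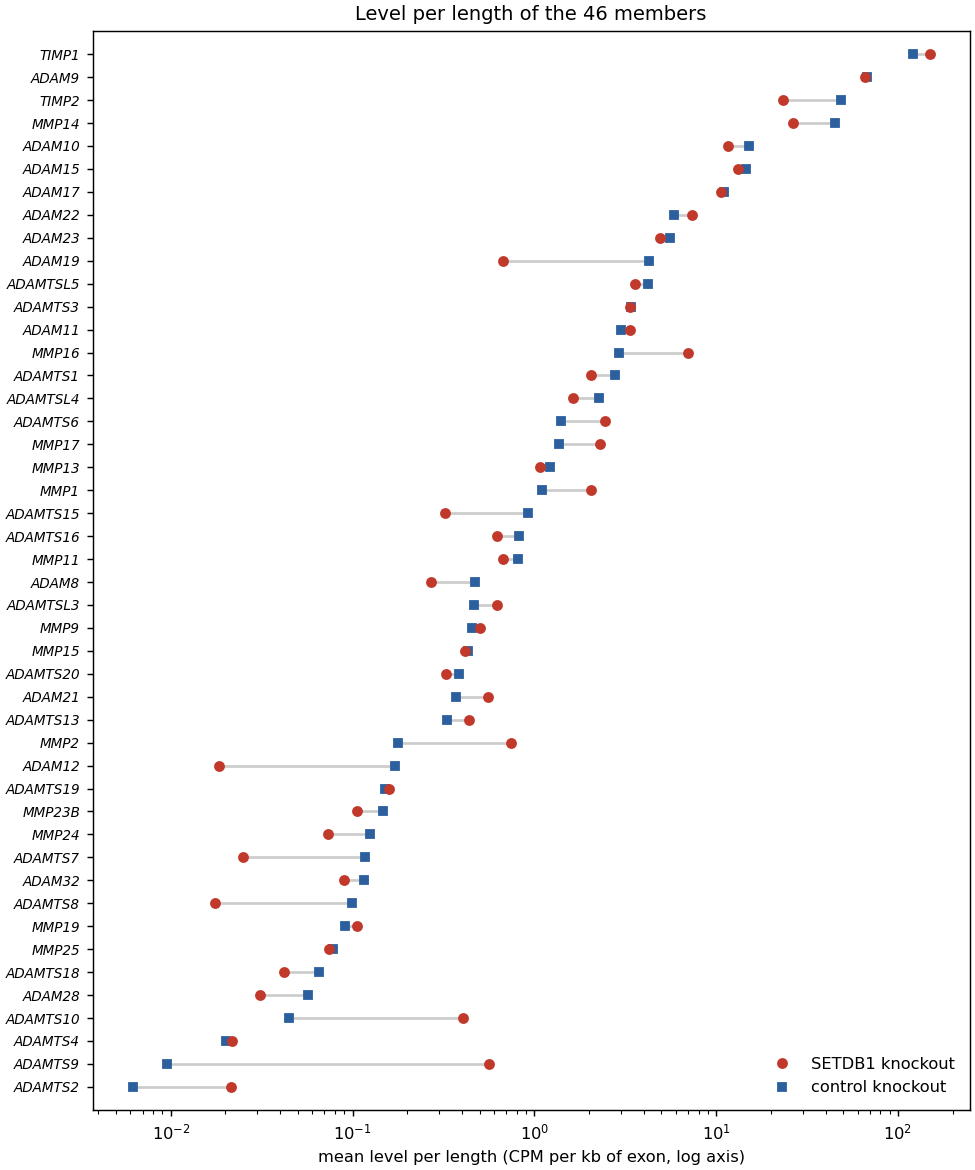
Mean CPM per kilobase of exon in SETDB1-knockout and control cells for the members, on a log axis. TIMP1 is highest, at 149.6 CPM per kb in SETDB1-knockout cells and 121.5 in control cells, and ADAM9 follows at 66.1 CPM per kb in SETDB1-knockout cells and 67.7 in control cells.

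The sequence just before the annotated start is shown for the 2 steepest called rises and the 2 steepest called falls that had at least 1 CPM and an entry in the RefSeq promoter table (GRCh38.p14). Each line gives the 150 bases before the start on the gene's strand, 5′ to 3′, with CpG dinucleotides in capitals, so that the CpG content at the start of genes that rose and fell can be compared.
ADAMTS10, chr19:8610716-8610865, minus strand: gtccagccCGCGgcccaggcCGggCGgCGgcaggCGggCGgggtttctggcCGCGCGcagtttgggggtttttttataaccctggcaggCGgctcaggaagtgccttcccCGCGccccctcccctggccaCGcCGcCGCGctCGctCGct
ADAMTS6, chr5:65481921-65482070, minus strand: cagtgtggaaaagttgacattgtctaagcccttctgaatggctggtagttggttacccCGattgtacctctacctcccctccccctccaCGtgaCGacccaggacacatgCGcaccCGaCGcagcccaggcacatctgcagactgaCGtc
ADAM12, chr10:126388478-126388627, minus strand: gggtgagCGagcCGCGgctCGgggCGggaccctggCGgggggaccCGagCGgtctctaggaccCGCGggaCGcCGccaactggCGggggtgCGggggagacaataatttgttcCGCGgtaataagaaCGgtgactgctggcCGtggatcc
ADAM19, chr5:157575776-157575925, minus strand: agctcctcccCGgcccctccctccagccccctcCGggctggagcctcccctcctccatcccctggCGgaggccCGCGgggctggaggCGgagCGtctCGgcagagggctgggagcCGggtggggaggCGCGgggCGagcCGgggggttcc
The stretches hold 19 CpG for ADAMTS10, 7 for ADAMTS6, 18 for ADAM12 and 13 for ADAM19, so 1 rising and 1 falling gene had nearly the same number.

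The table matched 27 of the 46 members. MMP1, MMP2, MMP9, MMP13, MMP16, ADAMTS9, ADAMTS15 and TIMP2 were among those without an entry, so the values below do not cover them. Over the table's 300-base windows the median CpG number was 16 for the 7 members called higher and 31.5 for the 10 called lower. It was 32.5 for the 8 that did not pass and 14 for all 27305 promoters. The median GC content of the 27 members was 74.3%, against 58.3% for all promoters. The AP-1 motif TGANTCA, searched on both strands of the 250 bases before the start, was found in none of the 27 and in 6.6% of all promoters. The letters TATAAA, searched on the gene's strand, were found in none of the 27 and in 7.17% of all promoters. With 27 members, finding none says little beside shares of this size, and the difference was not tested. All promoters of the promoter table were taken for comparison, whether or not their genes were counted here. For 22 of the 27 members, the bases after the start matched a GENCODE transcript of the gene. These are descriptions of letters in a window and say nothing of factor binding.

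ADAMTS9 had the steepest rise of all members. ADAMTS9 (chromosome 3, 64515654 to 64688000), which cleaves versican and aggrecan, was at 5.832, 5.576 and 6.701 CPM in SETDB1-knockout libraries, against 0.1001, 0.06307 and 0.1412 CPM in control libraries. This was 597 counts over the SETDB1-knockout libraries and 10 over the control libraries, a log2 fold change of 5.82 ± 0.23 (adjusted p = 3.64e-14) or 56.6-fold. The 50 expressed genes around it had a median of 0.13. Per length the gene was at 0.565 CPM per kb in SETDB1-knockout cells and 0.00950 CPM per kb in control cells.

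The other aggrecanase-type genes were lower or did not pass. ADAMTS15 (chromosome 11, 130448974 to 130476641) was at 2.233, 1.820 and 1.405 CPM in SETDB1-knockout libraries, against 5.672, 5.455 and 4.575 CPM in control libraries. The log2 fold change of -1.53 ± 0.15 (adjusted p = 2.18e-08) came without overlap. ADAMTS8, 19980 bases away, had 8 counts over the SETDB1-knockout libraries and 43 over the control libraries, and a log2 fold change of -2.40 ± 0.44 (adjusted p = 9.68e-05). ADAMTS1, another versican-cleaving protease, averaged 14.5 ± 0.183 CPM in SETDB1-knockout libraries and 19.6 ± 2.96 CPM in control libraries, with -0.43 ± 0.09 (adjusted p = 2.22e-04) and -0.27 once its neighbourhood median was taken out. ADAMTS20 did not pass at -0.26 ± 0.14, and ADAMTS4 had 22 counts over the SETDB1-knockout libraries and 20 over the control libraries and was not tested.

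ADAMTS10 and ADAMTS6, close relatives linked to fibrillin microfibrils, both rose. ADAMTS10 (chromosome 19, 8580242 to 8610735) was at 2.933, 1.791 and 2.224 CPM in SETDB1-knockout libraries, against 0.2002, 0.3153 and 0.2542 CPM in control libraries. ADAMTS10 had 226 counts over the SETDB1-knockout libraries and 25 over the control libraries. Its log2 fold change was 3.14 ± 0.27 (adjusted p = 4.09e-09), 8.80-fold higher in SETDB1-knockout cells. ADAMTS6 averaged 21.0 ± 0.854 CPM in SETDB1-knockout libraries and 11.95 ± 1.21 CPM in control libraries, with 0.82 ± 0.08 (adjusted p = 1.22e-08). Their promoter stretches above differ in CpG number, with 19 and 7.

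ADAMTS3 (chromosome 4, 72280969 to 72569386), a procollagen processing enzyme that also takes part in activating VEGF-C, had the highest level per length of the ADAMTS genes in both groups, 3.35 CPM per kb in SETDB1-knockout cells and 3.40 CPM per kb in control cells. It was at 24.89, 24.85 and 22.44 CPM in SETDB1-knockout libraries, against 24.26, 24.85 and 24.12 CPM in control libraries. Its log2 fold change was -0.02 ± 0.06 (adjusted p = 0.784), with overlapping groups. ADAMTS2, of the same enzyme type, had 19 counts over the SETDB1-knockout libraries and 5 over the control libraries and was not tested.

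Among the remaining ADAMTS genes, ADAMTS7, which cuts cartilage oligomeric matrix protein, had 19 counts over the SETDB1-knockout libraries and 86 over the control libraries, with a log2 fold change of -2.18 ± 0.33 (adjusted p = 9.70e-06). ADAMTS16 had -0.39 ± 0.11 (adjusted p = 0.00308), and -0.66 with its neighbourhood median taken out. ADAMTS13, the protease of von Willebrand factor, had 0.40 ± 0.16 (adjusted p = 0.0338), and lost its call when SETDB1-knockout replicate 1 or 3 or control replicate 3 was left out, at adjusted p of 0.145, 0.0783 and 0.167, and in the DESeq2 test at 0.0991. ADAMTS18 and ADAMTS19 did not pass, at -0.64 ± 0.35 and 0.06 ± 0.23, and ADAMTS18 was called without control replicate 1, at -0.87 and an adjusted p of 0.0445, but was at -0.45 (0.362) without control replicate 3. ADAMTS6, ADAMTS1 and ADAMTS9 made up 22.7%, 19.0% and 5.23% of the summed ADAMTS level per length in SETDB1-knockout cells, and 13.2%, 26.3% and 0.0913% in control cells.

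The ADAMTS-like genes changed by less than 2-fold. ADAMTSL5 (chromosome 19, 1505018 to 1513604) was at 13.96, 12.28 and 12.88 CPM in SETDB1-knockout libraries, against 16.38, 14.60 and 15.11 CPM in control libraries, with a log2 fold change of -0.24 ± 0.07 (adjusted p = 0.00896). With its neighbourhood median taken out it was at -0.12 and lost its call (adjusted p = 0.176). ADAMTSL4, which binds fibrillin microfibrils and lies 365.3 kb from SETDB1, had -0.47 ± 0.09 (adjusted p = 7.98e-05). It shares 11.4% of its exon bases with its antisense gene, and no source used here gives the strand setting of the counts. ADAMTSL3 had 0.42 ± 0.12 (adjusted p = 0.00408).

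Of 14 tested genes that activate, inhibit or clear these proteases outside the TIMPs, 4 were higher and 9 lower. Over all genes tested 31.9% were called higher and 31.6% lower. The median log2 fold change of the list was -0.30 against 0.01 over all genes. The proprotein convertases PCSK6 and PCSK5, which cut precursor proteins, rose. PCSK6 averaged 11.8 ± 0.348 CPM in SETDB1-knockout libraries and 0.563 ± 0.0606 CPM in control libraries, a log2 fold change of 4.38 ± 0.13 (adjusted p = 4.44e-16). PCSK5 had 1.88 ± 0.17 (adjusted p = 1.09e-08), and TFPI2, a serine protease inhibitor of the matrix, 1.97 ± 0.06 (adjusted p = 1.48e-15). PLAU, which encodes the urokinase plasminogen activator, fell, as did RECK, a membrane-anchored inhibitor of MMPs. PLAU had -1.30 ± 0.06 (adjusted p = 1.26e-12), beside a median of -0.50 for the expressed genes around it and -0.80 once that was taken out, and RECK had -1.09 ± 0.08 (adjusted p = 4.85e-10).

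Of 5 tested related genes outside the 5 families (astacin proteases, pappalysins and papilin), 2 were higher and 2 lower, with a median of 0.02. The share called over all genes was 63.5%. The astacins TLL2 and TLL1 had log2 fold changes of 1.79 ± 0.16 and 1.25 ± 0.24, and TLL2 was at 2.41 with its neighbourhood median taken out. PAPPA2, a protease of insulin-like growth factor binding proteins, had -1.21 ± 0.29, and PAPLN -0.99 ± 0.08. All 4 passed, with adjusted p from 1.87e-09 to 0.00107.

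Substrates of ADAM sheddases and the genes that steer them were lower in 15 and higher in 5 of 26 cases, with a median of -0.19. The shares over all genes were 31.6% lower and 31.9% higher. AXL, a receptor kinase that is shed, averaged 968 ± 10.6 CPM in SETDB1-knockout libraries and 3235 ± 270 CPM in control libraries, a log2 fold change of -1.74 ± 0.06 (adjusted p = 1.32e-14), beside a median of -0.80 for the expressed genes around it and -0.94 once that was taken out. TGFA, a ligand of the epidermal growth factor receptor, had -1.61 ± 0.08, and the adhesion molecule L1CAM -1.47 ± 0.34. NOTCH1 had 0.73 ± 0.08 and HBEGF 0.28 ± 0.08, which was 0.14 and not called (adjusted p = 0.125) with the neighbourhood median taken out. TSPAN10, a tetraspanin that binds ADAM10, had 0.60 ± 0.22 (adjusted p = 0.0225), and was not called when SETDB1-knockout replicate 1 or control replicate 2 was left out (0.0815 and 0.132), nor in the DESeq2 test (0.0782).

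The list of matrix proteins that these proteases cut or bind held 21 genes, of which 13 had a row and 10 were tested. COL1A2 and COL3A1 were among those without a row, and COL4A1, DCN and VWF did not pass the filter. Of the 10 tested genes 7 were lower and 1 was higher, with a median of -0.48. Among all genes 31.6% were lower and 31.9% higher. TNC, the matrix glycoprotein tenascin C, averaged 0.970 ± 0.0608 CPM in SETDB1-knockout libraries and 24.6 ± 1.42 CPM in control libraries, a log2 fold change of -4.65 ± 0.11 (adjusted p = 8.81e-18). LAMB3, a laminin chain, had -0.93 ± 0.06, and VCAN, the proteoglycan versican that ADAMTS9, ADAMTS1 and ADAMTS15 can cut, -0.88 ± 0.07. FN1, fibronectin, had 0.48 ± 0.06 (adjusted p = 7.52e-07). Of 13 tested transcription factor genes known to act on MMP promoters, 5 were higher and 4 lower, with a median of 0.07. This was near the share of all genes called, 63.5%. JUNB had 0.83 ± 0.06, ETV4 0.47 ± 0.06 and FOS 0.46 ± 0.10, while JUN had -0.85 ± 0.05, RUNX2 -0.68 ± 0.08 and FOSL2 -0.66 ± 0.06. With neighbourhood medians taken out FOS was at 0.72 and RUNX2 at -0.38.

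**Figure D5:**
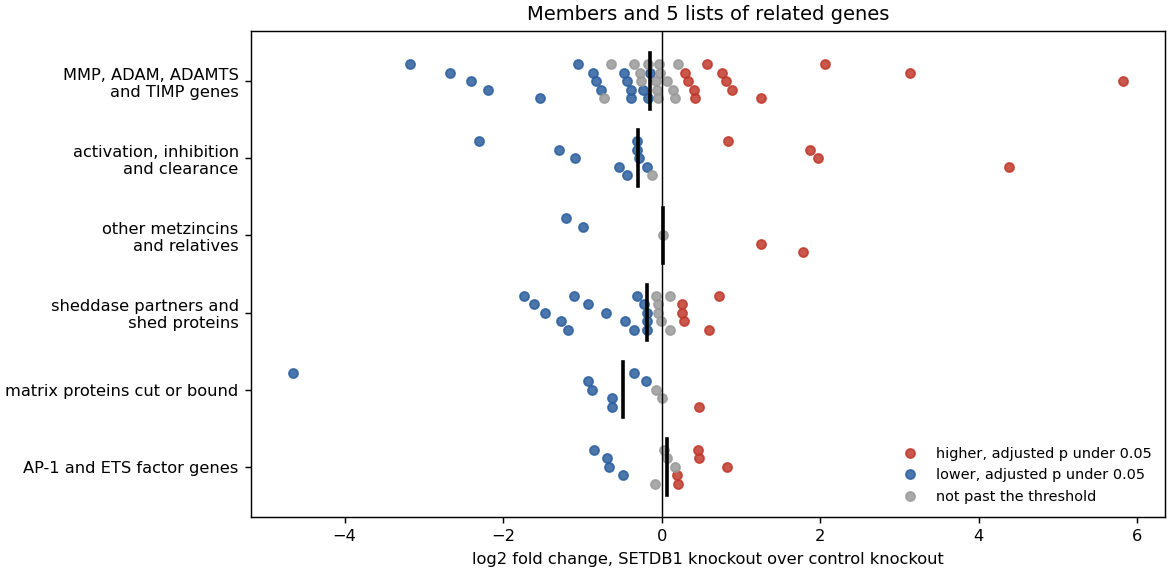
Log2 fold changes, SETDB1 knockout over control, of the tested members (top row) and of the tested genes in the 5 related lists, 1 point a gene, with called genes in colour and the median of each list marked. The medians lie between -0.48 for matrix proteins and 0.07 for transcription factors.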

How the data were processed

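RNA-seq of 6 H1299 samples was analysed, 3 per group, grouped by title. The authors deposited raw read counts per gene. FastQC, TopHat2 and HTSeq on GRCh38.p7 are named in the submitters' processing notes, and no source used here gives versions, strand or counter settings. Every row had a library with at least 11 counts. Identifiers were matched to GENCODE 29 without version (18595 of 18677). Tests used R 4.3.3 and edgeR 4.0.16: filterByExpr, which left 17675 genes and removed 1002, TMM scaling, robust quasi-likelihood fits without a replicate term, and Benjamini-Hochberg adjustment over all tested genes (threshold 0.05). The SE is the absolute log2 fold change over the root of F. CPM used TMM-scaled totals. Levels per kilobase used the union of annotated exons, which understates genes with many isoforms. Replicates differed by more than counting error (chi-square per degree of freedom 2.32 to 10.3). Reads of overlapping or near-identical genes may be split or miscounted.

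The members and lists were chosen with earlier results of these data known. Values by library are given for members called at 2-fold or more with at least 1 CPM in the higher group, both TIMPs, MMP2, MMP14, ADAM10, ADAM17 and the highest member of each family per length, with MMP1 added after its values were seen. For each list up to 3 called genes per direction are named. A gene that this rule takes is not reported here. The steps were tested on simulated data. Alternatives were DESeq2 1.42.0, limma-voom (limma 3.58.1), other scalings, filters and thresholds, a replicate block, removal of the neighbourhood median (25 expressed genes on each side) and each library left out.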

Additional observations from a re-analysis of the deposited data

How the results depend on the processing

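Of the 28 called genes, 11 were tested and called under all 17 alternatives and 18 under the 15 that leave the threshold alone. ADAM28, ADAMTS7 and ADAMTS8 were removed by the filter of at least 1 CPM in 3 libraries. With a test against a 1.5-fold change (glmTreat), 6 members were higher and 7 lower, beside 3052 of 17675 genes called in either direction. The lists then counted 3 lower among activators and inhibitors, and 0 higher and 7 lower among sheddase substrates and partners. Matrix proteins counted 0 higher and 3 lower, and transcription factors 1 higher and 1 lower. For the 2 zeros, glmTreat at an unadjusted p under 0.05 gave 1 and 0 higher genes, and edgeR's quasi-likelihood test 5 and 1. At an adjusted p of 0.01, 3 genes of the list of sheddase substrates and partners were higher. With at least 1 CPM in 3 libraries, 1 of the related genes was lower. Matrix proteins called higher numbered 2 without a filter and 2 with the neighbourhood median removed. Leaving out 1 library gave 10 to 12 higher and 15 to 16 lower members, and 1 to 2 matrix proteins higher. With the neighbourhood median removed, ADAM10 turned to 0.12, ADAMTS19 to -0.0344, ADAMTS20 to 0.16, ADAMTS3 to 0.0521, MMP13 to 0.11, MMP19 to -0.0080 and MMP9 to -0.25, while ADAM8 (adjusted p = 0.13), ADAMTSL5 (0.176) and HBEGF (0.125) lost their calls and ADAM9 was called at -0.19 (0.00661). Library size alone turned ADAM9 to 0.0060 and ADAMTS3 to 0.0195, and upper-quartile scaling ADAMTS3 to 0.0112. With 1 library left out, genes that were not called spanned 0: ADAMTS19 from -0.12 to 0.19, ADAMTS3 from -0.0503 to 0.0243, MMP15 from -0.22 to 0.11, MMP19 from -0.16 to 0.40, MMP25 from -0.27 to 0.21 and MMP9 from -0.0148 to 0.39. The causes were not tested. Deviations of same-numbered samples correlated at 0.20, -0.10 and 0.09, and those of differently numbered samples at -0.26 to 0.22. With 3 samples per group these values cannot settle whether the replicate numbers pair the samples. With the replicate number as a block, 13 members were higher and 18 lower, beside 11703 of 17675 genes called in either direction. Calls were gained by ADAM11 (adjusted p = 0.0396), MMP11 (0.0484) and MMP24 (0.0477) in edgeR's test with that block. Genes with fewer than 50 counts in a group are limited by depth. Among them are ADAMTS9, ADAMTS10, ADAM12, ADAMTS8, ADAMTS7 and MMP25, and L1CAM and PAPPA2 of the lists.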
